A study of Sus scrofa with 4 samples.

Results

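The Toll-like receptors (TLRs) were followed here in thymus from pigs with an IL2RG knockout (KO) and from wildtype (WT) pigs. They were chosen as all probes whose RefSeq accession belongs to one of the pig genes TLR1 to TLR10, which gave 13 probes of 9 genes among the 43597 usable probes and 3020 named genes of the array. TLR5 had no named probe and is not described further. TLR3 had 2 probes and TLR4 had 4, and each of the other 7 genes had 1. All 13 probes were well above background on all 4 arrays, so none of them entered the comparison through 1 genotype alone.

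The KO group is labelled IL2RG+/- and the control group wildtype, both are Minnesota miniature swine, and the tissue of both is thymus. The comparison asks how gene expression in the thymus differs when IL2RG, the receptor chain shared by several interleukin receptors, is disrupted. No treatment and no age is given for the arrays in the sources used here. The KO pigs carried a TALEN-made deletion in 1 IL2RG allele and were made by nuclear transfer from such cells, and only KO animals in which a rudimentary thymus was present could be sampled, which limits the group as a model. Each genotype had 2 arrays, and each slide held 1 array of each genotype (slide 1 the first KO and second WT array, slide 2 the others), and because the labels do not tie each array to an animal, p-values measure only the spread between these samples.

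Toll-like receptors are membrane receptors of innate immunity that recognise conserved molecules of microbes. TLR1, TLR2, TLR4, TLR5, TLR6 and TLR10 act mainly at the cell surface, whereas TLR3, TLR7, TLR8 and TLR9 read nucleic acids in endosomes. They signal through adaptors such as MYD88 and TICAM1 to NF-kB and interferon regulatory factors, which switch on cytokines, chemokines and costimulatory molecules. Macrophages, dendritic cells and B cells are well known carriers of these receptors.

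Values are log2 signals from which the 75th percentile of the array was subtracted, so that 0 is that percentile, and log2 fold changes are KO minus WT. A probe was called when the limma fit over all 31960 tested probes gave a Benjamini-Hochberg adjusted p under 0.05 and the change was at least 2-fold. The targeted gene, IL2RG, lay at -3.15 and -3.29 on the KO arrays and at -0.13 and 0.52 on the WT arrays, which is a difference of -3.41 (standard error, SE, 0.27, limma adjusted p = 0.00256). All 13 thymocyte markers on the list were called lower, by a median of -2.60, where 12.6% of all named genes tested were. Their summed scaled signal was 36.3 and 34.7 in KO against 241 and 338 in WT. RAG2, 1 of these markers, was not well above background on KO replicate 2 and entered the comparison through the WT arrays alone. WT replicate 1 stood apart from WT replicate 2 in the neutrophil and monocyte markers, whose summed scaled signal was 80.4 against 6.42. In bulk tissue, fewer cells of a type and less RNA per cell cannot be told apart.

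Of the 9 TLR genes, 7 were higher in KO thymus (TLR1, TLR2, TLR3, TLR4, TLR6, TLR8 and TLR9), TLR10 was lower, and TLR7 was not called. The 7 increases ran from 2.14-fold for TLR9 to 5.88-fold for TLR3. By probe, 11 of 13 were higher and 1 was lower. Among all tested probes 21.0% were called higher and 13.0% lower, and among the 2702 named genes tested, each by its brightest probe, 25.2% were higher and 12.6% lower. The median log2 fold change was 1.28 over the 9 TLR genes and -0.002 over the named genes. With each array left out in turn, the median over the TLR genes ran from 1.01 (without WT replicate 2) to 1.58 (without WT replicate 1). With scaling to the median in place of the 75th percentile, the median over all tested probes moved from -0.06 to -0.32, the share of increases among all calls moved from 61.7% to 47.8%, and 5 of the 9 TLR genes were called higher and 1 lower.

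**Figure D1:**
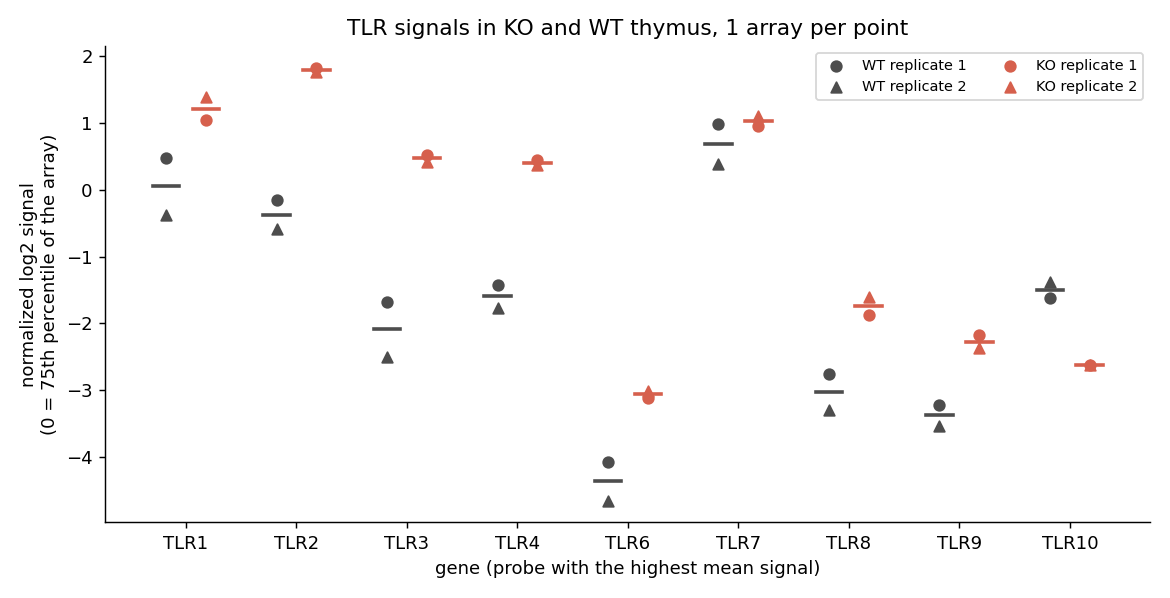
Normalized log2 signal (vertical axis) of each TLR gene on its brightest probe, with 1 point per array, circles for replicate 1, triangles for replicate 2 and a line at the mean of each genotype. The KO points lie above both WT points for 7 genes and below them for TLR10. For TLR7 the point of WT replicate 1 lies between the KO points.

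TLR2, TLR3 and TLR4 had the highest log2 fold changes of the 9 genes. TLR2, which pairs with TLR1 or TLR6 to recognise bacterial lipopeptides, had signals of 1.82 and 1.76 on the KO arrays and -0.15 and -0.59 on the WT arrays. Both KO arrays lay far above both WT arrays, with mean signals of 1.79 ± 0.04 (SD, n = 2) for KO and -0.37 ± 0.31 (SD, n = 2) for WT. The log2 fold change was 2.17 (SE 0.21, limma adjusted p = 0.00366), or 4.49-fold, and 11.1% of the named genes had a change as high or higher. Within slide 1 it was 2.42 and within slide 2 it was 1.91.

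TLR4, the receptor that senses lipopolysaccharide together with LY96 and CD14, was measured by 4 probes. The brightest had signals of 0.44 and 0.37 on the KO arrays and -1.42 and -1.76 on the WT arrays, with a log2 fold change of 2.00 (SE 0.19, limma adjusted p = 0.00343). The second probe lay at 0.10 and 0.37 on the KO arrays and at -1.48 and -2.01 on the WT arrays, a change of 1.98. On the third, KO had -2.14 and -2.16 and WT had -4.25 and -4.34, which gave 2.14. The last probe read -3.01 and -2.79 for KO, -4.44 and -4.57 for WT, and gave 1.60. All 4 probes were called, with no overlap between the genotypes on any of them, and the WT signals before scaling were 172 to 232 on the first pair of probes and 29 to 34 on the last pair. The 4 fold changes spanned 3.04 to 4.41 in linear terms. All 4 probes carry the same accession and are not independent replicates.

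TLR3, the endosomal sensor of double-stranded RNA, had the largest of these changes. Its brighter probe had signals of 0.52 and 0.42 on the KO arrays and -1.68 and -2.50 on the WT arrays, and the log2 fold change was 2.56 (SE 0.32, limma adjusted p = 0.00583). The second probe gave 0.31 and 0.22 in KO, -1.84 and -2.79 in WT, and a change of 2.57. The KO arrays were close to each other, whereas the WT arrays were 0.82 and 0.95 apart on the 2 probes, with replicate 1 the higher. Of the named genes tested, 6.70% changed by as much as TLR3 or more. Leaving out WT replicate 1 moved the change of TLR3 to 2.97 and leaving out WT replicate 2 moved it to 2.15.

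TLR1 and TLR6, the partners of TLR2, rose as well. TLR1 had signals of 1.04 and 1.38 on the KO arrays and 0.47 and -0.37 on the WT arrays, a log2 fold change of 1.16 (SE 0.34, limma adjusted p = 0.0488) just inside the threshold. The WT arrays differed by 0.84, and the lower KO array was 0.57 above the higher WT array. Without WT replicate 2 the change of TLR1 was 0.74 (limma adjusted p = 0.0565), and over 14 limma alternatives its adjusted p ran from 0.00715 to 0.204 and 8 called it. TLR6 lay at -3.12 and -3.00 on the KO arrays and at -4.07 and -4.65 on the WT arrays, a log2 fold change of 1.30 (SE 0.25, limma adjusted p = 0.016). Before scaling its signals were 88 and 87 in KO and 37 and 28 in WT, where the lowest signal marked as well above background was between 9.27 and 11.8 on the 4 arrays.

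TLR10, whose ligands are less well known and which is found mainly on B cells in humans, went the other way. Its signals were -2.63 and -2.61 on the KO arrays and -1.62 and -1.38 on the WT arrays. The KO arrays were almost equal and both lay below WT, with means of -2.62 ± 0.01 (SD, n = 2) and -1.50 ± 0.17 (SD, n = 2), and the log2 fold change was -1.12 (SE 0.17, limma adjusted p = 0.00919). It was -1.25 within slide 1 and -0.99 within slide 2. TLR10, TLR1 and TLR6 are next to each other in that order in RefSeq's annotation of Sscrofa11.1, and of these 3 neighbours TLR10 fell and the other two rose. The call of TLR10 was lost under the normexp background correction, where the change was -0.69, and without WT replicate 2, where it was -0.998 (limma adjusted p = 0.0126) and just under 2-fold. Without KO replicate 1 its adjusted p was 0.0788 and without KO replicate 2 it was 0.0809 in limma, with changes of -1.11 and -1.13, and the range over the 14 limma alternatives was 0.00515 to 0.0809.

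**Figure D2:**
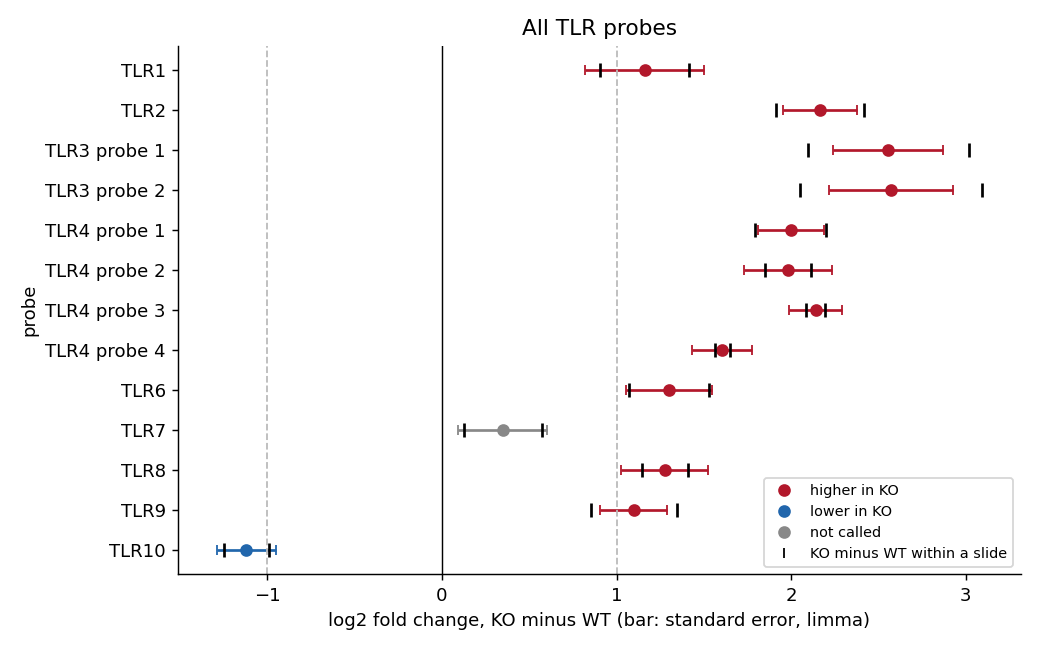
Log2 fold change, KO minus WT (horizontal axis), of all 13 TLR probes with the limma standard error as a bar and the KO minus WT difference of each slide as a black tick, and with 2-fold marked by dashed lines. The 4 TLR4 probes span 1.60 to 2.14 and the 2 TLR3 probes 2.56 to 2.57, and both slides give the same sign for every probe. The lack of overlap between the genotypes fixes this sign for every probe except that of TLR7.

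Among the endosomal receptors, TLR8 and TLR9 were called and TLR7 was not. TLR8, a sensor of single-stranded RNA, had signals of -1.88 and -1.61 on the KO arrays and -2.76 and -3.29 on the WT arrays, and its log2 fold change was 1.28 (SE 0.25, limma adjusted p = 0.0172). TLR9, which recognises unmethylated CpG DNA, lay at -2.18 and -2.37 on the KO arrays and at -3.22 and -3.53 on the WT arrays, with a log2 fold change of 1.10 (SE 0.19, limma adjusted p = 0.0129). On these 2 genes no WT array reached a KO array. The increase of TLR9 was close to the 2-fold limit and fell under it with quantile normalization (0.88), with scaling to the median (0.84), under normexp (0.62), in the log2 values deposited by the authors (0.94) and without WT replicate 2 (0.95), at adjusted p values of 0.019, 0.0203, 0.0197, 0.0126 and 0.0194 in limma, within a range of 0.00798 to 0.102 over the 14 limma alternatives.

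TLR7 is the neighbour of TLR8 in the gene table and reads single-stranded RNA as well. Its signals were 0.95 and 1.10 on the KO arrays and 0.97 and 0.38 on the WT arrays, so that WT replicate 1 lay between the KO arrays. The log2 fold change was 0.35 (SE 0.25, limma adjusted p = 0.313), with a 95% interval from -0.33 to 1.03 that still includes a change of 2-fold. Its change was positive but under 2-fold in each of the 16 alternatives, from 0.05 to 0.65. The 95% interval of TLR8 ran from 0.61 to 1.95 and overlaps that of TLR7, and the difference between the 2 changes was not tested.

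**Figure D3:**
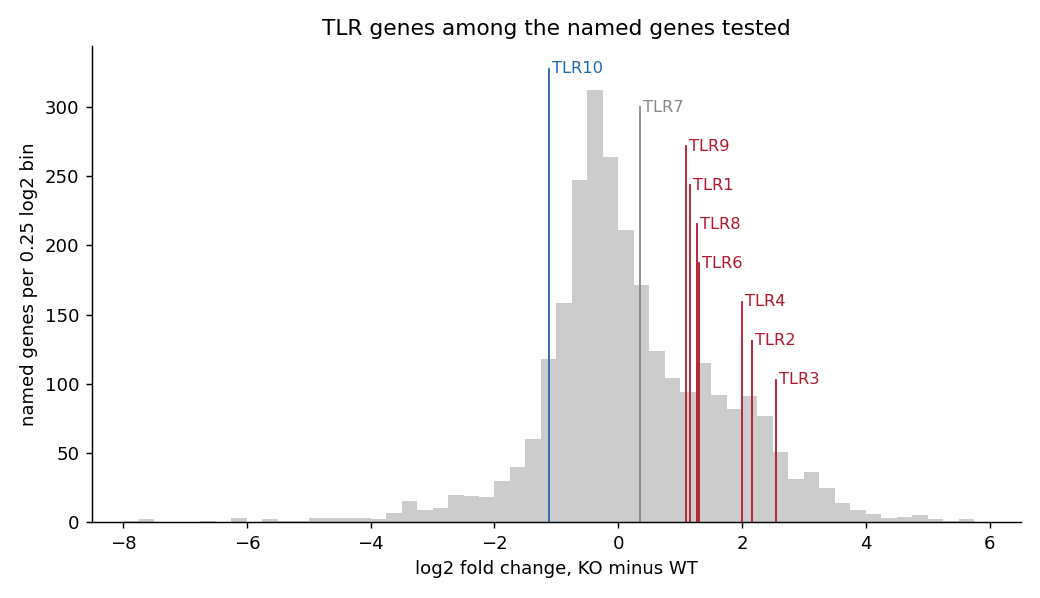
Number of named genes per 0.25 log2 bin (grey bars, vertical axis) by log2 fold change, KO minus WT (horizontal axis), over the 2702 named genes tested, with the 9 TLR genes as vertical lines of arbitrary height. TLR3, TLR2 and TLR4 lie in the upper tail of the genes, TLR7 near its centre and TLR10 at -1.12.

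On the brightest probe of each of the 9 TLR genes the KO arrays were closer to each other than the WT arrays were, whereas on the last TLR4 probe the KO arrays were 0.22 apart and the WT arrays 0.13. On the brightest probes the gap between the KO arrays was 0.01 to 0.34 and that between the WT arrays 0.24 to 0.84. Over all tested probes the KO arrays were also the closer pair. The SD of the difference was 0.36 between the KO arrays and 0.63 between the WT arrays. WT replicate 1 was above WT replicate 2 for 8 of the 9 genes, with TLR10 the exception. Both slides gave the same sign as the mean for all 9, which the lack of overlap between the genotypes fixes for every gene except TLR7. For the order of the WT arrays and for the sign by slide, the shares over all tested probes were not counted. At the level of probes, 11 of 13 had both KO arrays above both WT arrays and 1 had them below, where 37.7% and 41.0% of all tested probes did.

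Markers of the cells that can carry these receptors moved as well. Among all named genes tested, 25.2% were called higher in KO and 12.6% lower. Of 12 macrophage markers listed, 8 had a probe and all 8 were called higher in KO. Their log2 changes were 1.82 to 3.05 around a median of 2.12 (CD14 counts here and below). Summed and scaled, they read 228 and 289 in KO and 58.5 and 49.8 in WT, with WT replicate 1 again above WT replicate 2. Of the defining macrophage genes CD163 changed by 1.96 and MRC1 by 3.05. The part of macrophage content in the TLR increases was not tested. Conventional dendritic cell markers had 3 tested genes, of which XCR1 was higher (1.13, with 1 of its 2 probes called). CCR7 (0.48, limma adjusted p = 0.117) and FSCN1 (0.49, limma adjusted p = 0.22) were not called. The summed signal of the 3 genes was 26.5 and 32.0 on the KO arrays and 22.6 and 18.7 on the WT arrays. CCR7 and FSCN1 were brighter than XCR1 on all 4 arrays and made up most of this sum. For plasmacytoid dendritic cells only IRF7 had a probe, and it was not called (1.17, limma adjusted p = 0.0748).

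Among the B cell markers, MS4A1, a B cell surface protein, had a log2 fold change of -3.45 (SE 0.29, limma adjusted p = 0.00277), with 1 of its 2 KO arrays not well above background, and CD79A, a part of the B cell receptor, one of -3.47 (SE 0.17, limma adjusted p = 0.00205). BLNK, an adaptor on the same list, was called higher by 1.43 (SE 0.32, limma adjusted p = 0.0251). TLR10 changed in the direction of MS4A1 and CD79A and opposite to BLNK. Among all named genes tested, 12.6% were called lower and 25.2% higher. The part of B cell content in the change of TLR10 was not tested. Endothelial and fibroblast markers rose too, with medians of 2.23 over 3 genes and 1.79 over 3 genes, as did 2 of 3 epithelial markers. Neutrophil and monocyte markers were not called in any of 4 genes. S100A8, S100A9 and S100A12 had changes of -3.36, -3.74 and -2.82, with both KO arrays below both WT arrays. On these genes the WT arrays were far apart, and FCN1 changed by 0.25. All 7 proliferation markers with a probe were lower (median -2.48), where 12.6% of all named genes tested were.

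The genes that work with the TLRs were described by role from a list of 79, of which 51 could be tested. Of these, 26 were higher in KO and 1 was lower, where 25.2% and 12.6% of all named genes were, and the median over the tested genes was 1.15 on the log2 scale. The accessory proteins had 5 of 6 genes higher and the induced targets 17 of 20, whereas 5 of the 25 genes tested for trafficking, adaptors, kinases, transcription factors and inhibitors were called, 4 higher and 1 lower. No test of the difference between roles was made, and the targets respond to many signals other than TLRs.

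Of the accessory proteins, CD14 and LY96, which load lipopolysaccharide onto TLR4, rose by 1.98 (SE 0.33) and 1.13 (0.19), at limma adjusted p of 0.0119 and 0.0118. CD36, a scavenger receptor that assists TLR2, rose by 2.66 (SE 0.61, limma adjusted p = 0.026). CD180, a TLR-like receptor that lacks a signalling domain, was at 0.04 and 0.28 on the KO arrays and -4.37 and -5.04 on the WT arrays, and its partner LY86 had a log2 fold change of 1.54 (SE 0.42, limma adjusted p = 0.0414). CD180 rose by 4.87 (SE 0.28, limma adjusted p = 0.00207), more than any TLR gene. Only LBP, the serum carrier of lipopolysaccharide, was not called (-0.44, limma adjusted p = 0.291). Without KO replicate 1, and likewise without KO replicate 2, LY96 and LY86 were no longer called, CD14 and CD36 lost their call without KO replicate 2, and CD36 and LY86 lost it without WT replicate 2. LY96 was also not called with scaling to the median, nor LY86 without a filter on dim probes or with the replicate number as a block.

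Of the 12 adaptors and kinases tested, 2 were called, both higher, where 25.2% of all named genes tested were called higher and 12.6% lower. MYD88, the adaptor of nearly all TLRs except TLR3, had a log2 fold change of 0.21 (SE 0.18, limma adjusted p = 0.393), and TICAM2, which bridges TLR4 to TICAM1, rose by 1.26 (SE 0.18, limma adjusted p = 0.0080). TBK1, the kinase that activates interferon regulatory factors, rose by 1.46 (SE 0.17, limma adjusted p = 0.00481). TRAF6, MAP3K7 and CHUK on the way to NF-kB had changes of -0.82, -0.92 and -0.89, at adjusted p values of 0.015, 0.0142 and 0.042 in limma but under 2-fold. When the arrays were scaled to the median, these 3 genes were called lower and TICAM2 was not called. IRAK4 (-0.45) and TAB1 (-0.28) were not called, nor was BTK at 1.64 (limma adjusted p = 0.0514).

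Of the transcription factors, NFKB1 rose by 1.27 and SPI1, the factor that drives myeloid genes, by 1.70, with standard errors of 0.18 and 0.19. IRF3 (-0.45, limma adjusted p = 0.0705), JUN (0.50, limma adjusted p = 0.0688) and RELA (-0.55, limma adjusted p = 0.173) were not called. TNFAIP3, an enzyme that shuts down NF-kB signalling, fell by 1.02 (SE 0.26, limma adjusted p = 0.0351), at the edge of 2-fold, and was no longer called with quantile normalization, with normexp, without a filter on dim probes, with the replicate number as a block, or without any 1 of the arrays other than WT replicate 1. NFKB1 and TICAM2 were not called without KO replicate 1 or without KO replicate 2, and SPI1 was not called under normexp. The inhibitors NFKBIA and TNIP1 had changes of 0.31 and 0.70 and were not called, at limma adjusted p of 0.304 and 0.0378. The chaperones HSP90B1 and CNPY3, which fold TLRs, had changes of 0.96 and -0.04 and were not called, at limma adjusted p of 0.0164 and 0.918. The changes of TNIP1 and HSP90B1 were under 2-fold, and 1 of the 8 HSP90B1 probes was called.

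**Figure D4:**
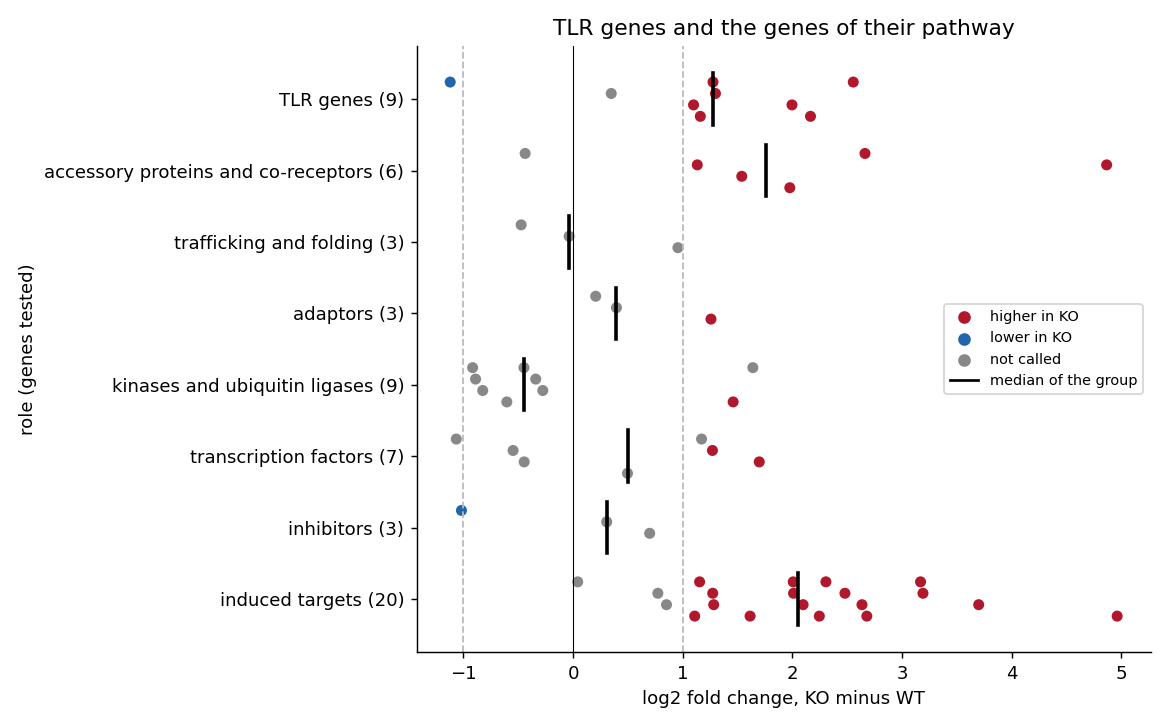
Log2 fold change, KO minus WT (horizontal axis), of the 9 TLR genes and of 51 tested pathway genes by role, with 1 point per gene in the colour of its call, a black line at the median of each role and dashed lines at 2-fold. Induced targets have the highest median (2.05) and kinases and ubiquitin ligases the lowest (-0.45).

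Among the induced targets, the chemokines CXCL9 and CXCL10 rose by 4.96 and 3.70, CCL2 by 3.19 and CCL4 by 3.17. The cytokines IL10, IL1A and IL6 rose by 2.68, 2.31 and 1.61, and the costimulatory genes CD80 and CD40 by 2.25 and 2.10. TNF rose by 1.15 (SE 0.31, limma adjusted p = 0.0386), with 1 of its 2 probes called, and lost its call without KO replicate 1, KO replicate 2 or WT replicate 1, with the slide as a block, with scaling to the median and without a filter on dim probes. IL6 was not called under normexp. IL1B (0.85, limma adjusted p = 0.0174) and IL12B (0.77, limma adjusted p = 0.0364) were not called because their changes were under 2-fold. NOS2 (0.04, limma adjusted p = 0.884) was not called either, and IFNB1 was not well above background on any array.

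In the pattern over the 4 arrays, each TLR gene had close neighbours among the 2693 other named genes. The nearest one, by the root mean square difference of values centred on their own mean, was B3GALNT1 for TLR2 (0.02), RAI14 for TLR3 (0.02), SCIN for TLR4 (0.04) and ITGAV for TLR10 (0.01), all in log2 units. For TLR1 it was IFI30, for TLR6 MUC20, for TLR7 DEGS1, for TLR8 THRA and for TLR9 SLC31A2. With 4 arrays many genes share a profile by necessity, and these are descriptions only.

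**Figure D5:**
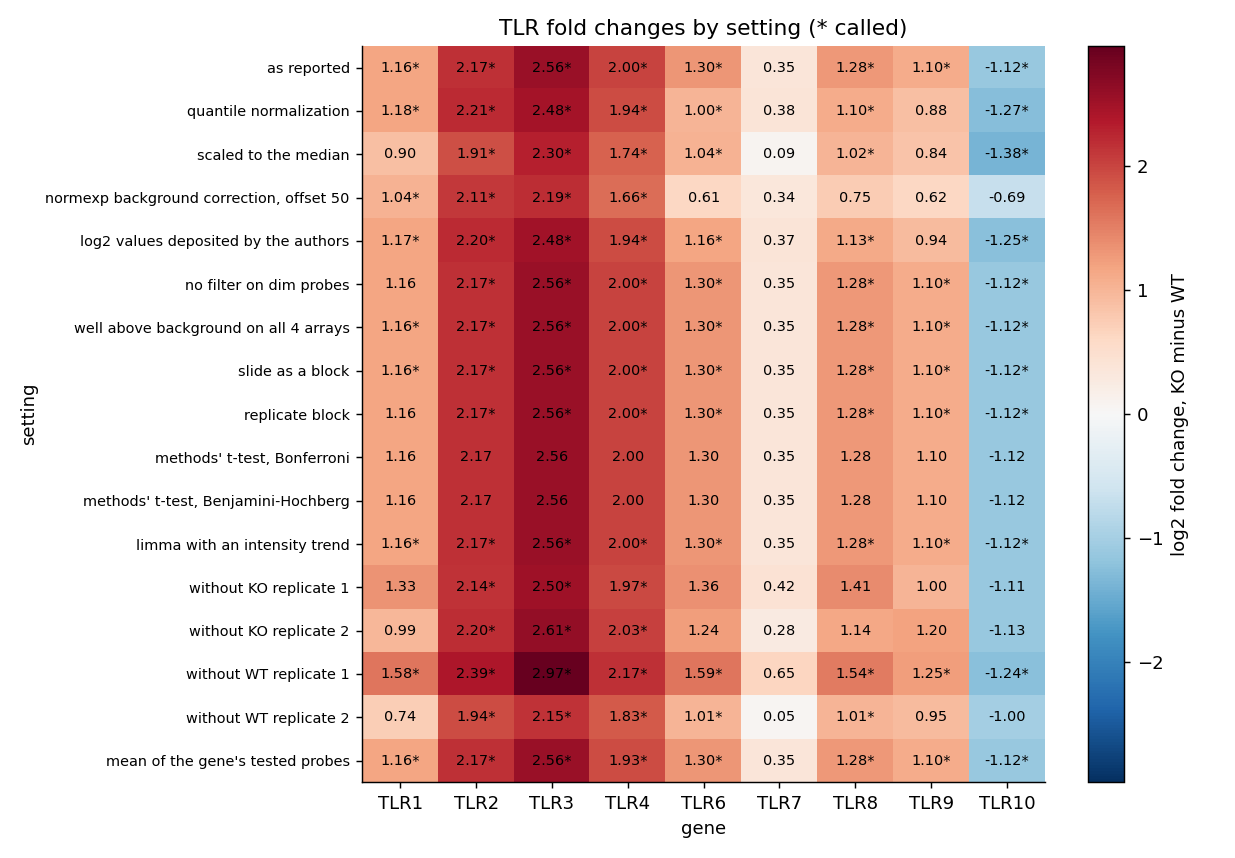
Log2 fold change, KO minus WT (number and colour), of each TLR gene (columns) as reported and under 16 alternative settings (rows), with a star where the gene was called. TLR2, TLR3 and TLR4 were called in all settings other than the methods' t-tests, and no gene changed sign in any setting.

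The calls differed in how well they held. TLR2, TLR3 and TLR4 were called in all 14 limma alternatives, TLR6 and TLR8 in 11, TLR10 in 10, TLR1 in 8 and TLR9 in 7. Without KO replicate 1, and also without KO replicate 2, 3 TLR genes were called (TLR2, TLR3 and TLR4), and without WT replicate 2 there were 5. At 2 arrays per genotype the smallest two-sided p of an exact permutation test on a single gene is 0.333, so that the calls rest on the spread that limma pools over probes.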

How the data were processed

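Thymus RNA of 2 KO and 2 WT samples was hybridised to Agilent porcine 4x44K arrays in 1 colour (Cy3), although the methods describe Cy-3 and Cy-5. The authors deposited spot intensity as Feature Extraction 11.0.1.1 gave it, with the background subtracted, on a linear scale and with no normalization between arrays, together with 0 or 1 marks for spots well above background, saturated or outlying. The authors also deposited log2 values, which follow the log2 scanner signal (Pearson's r of at least 0.9998 on each array) and have the same median on all 4 arrays. The paper names GeneSpring and gives no normalization. The direction and scale of these values match the scanner output, and they cover 27970 of the probes used here.

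Control spots and outlier spots were left out, signals were put on a log2 scale, spots of a probe were averaged and the 75th percentile of the array (762 and 695 in KO, 621 and 694 in WT) was subtracted. The 31960 probes marked well above background by both KO arrays, both WT arrays or all of them were fitted with limma 3.58.1 (lmFit and eBayes, R 4.3.3) and called where the change was 2-fold or more and p, adjusted by Benjamini-Hochberg, was under 0.05. Tables and plots used Python 3.11.15, pandas 2.3.3 and matplotlib 3.10.9. The procedure was also run on simulated data, with planted changes larger than those of TLR1, TLR6, TLR7, TLR8, TLR9 and TLR10. It therefore gives no check on calls of that size. No spot was saturated. The number of arrays limits the precision.

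Probes were named by matching accessions to the RefSeq table of Sscrofa11.1, which gave 6684 probes a symbol (for names and gene order only). The brightest probe, by mean log2 signal, stands for a gene. Named were IL2RG, all TLR genes with a probe, and up to 4 called genes of each pathway role with the largest change. Also named were some genes not called, not in every case those with the highest signal. A few more that the text compares were chosen after their values were seen. The members, the gene lists and the alternatives were chosen with earlier results of these data known. 1 marker gene is not reported here. No probe, protein or promoter sequences were used here. Tried as alternatives were scaling to the median, quantile normalization, normexp (offset 50, on the median intensity, which is the raw signal the deposited files used here give), the deposited log2 values, no filter, a filter for all 4 arrays, a block for slide or for replicate number, the methods' t-test, an intensity trend, the mean over the probes of a gene, and each array left out.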

Additional observations from a re-analysis of the deposited data

How the results depend on the processing

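No TLR gene changed sign under any alternative. Under the normexp background correction 4 TLR genes were higher and 0 lower, with a median over the TLR genes of 0.75 (7 probes higher and 0 lower), 0 pathway genes were lower, and 3909 probes were higher and 2702 lower among all tested. At an unadjusted p under 0.05 the counts of limma under normexp were 4 TLR genes higher and 0 lower, and 0 pathway genes lower. Scaling to the median called 5 pathway genes and 6334 probes lower. The count of lower pathway genes was 0 with quantile normalization, without a filter on dim probes and with the replicate block, and 2 in the log2 values deposited by the authors, and at an unadjusted p under 0.05 it was 1, 1 and 2 in the limma fits of the first 3.

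After Bonferroni correction the methods' t-test called 0 TLR genes, 0 TLR probes, 0 pathway genes and 0 probes in either direction, while at an unadjusted p under 0.05 there were 5 TLR genes higher and 1 lower, 23 pathway genes higher and 5098 probes higher and 3513 lower. With Benjamini-Hochberg adjustment it called 0 TLR genes (adjusted p from 0.0583 for TLR4), 1 TLR probe higher and 0 lower, 5 pathway genes higher and 0 lower, and 722 probes higher and 783 lower. IL2RG kept its log2 fold change of -3.41 in both and was not called (adjusted p = 1 and 0.0614).

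With each array left out in turn, 3 to 7 TLR genes were higher and 0 to 1 lower, 7 to 11 TLR probes higher and 0 to 1 lower, 16 to 27 pathway genes higher and 0 to 4 lower, and 4013 to 7566 probes higher and 2081 to 5147 lower. The median over the TLR genes ran from 1.01 to 1.58, and IL2RG from -3.74 to -3.09. Without KO replicate 1 or KO replicate 2 the lost TLR genes were TLR1, TLR6, TLR8, TLR9 and TLR10, and at an unadjusted p under 0.05 with 2-fold change 7 and 6 TLR genes were higher and 1 lower, and without WT replicate 2, where 0 TLR genes were lower, 0 were lower at an unadjusted p as well. The remaining array of that genotype was assumed to vary like the others.

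Same-numbered arrays deviated in opposite directions (r = -0.29 over 31960 probes), which with 2 arrays per genotype fixes the value for arrays of the same slide at 0.29. The replicate numbers were not taken to pair the samples, and the crossed pairing is the slide. The replicate block called 6 TLR genes higher and 1 lower, with TLR1 lost (adjusted p = 0.0733 in limma), and 6631 probes higher and 4037 lower. The slide as a block called 7 and 1, and 6887 and 4237 probes. The TLR genes whose calls normexp ended (TLR6, TLR8, TLR9 and TLR10) had signals of 28 to 267 before scaling. The cause was not tested.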
